A study of Mus musculus with 8 samples.

Results

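The adhesion and orphan G protein-coupled receptors were followed in fibroblasts of the mouse colon sorted by CD90. The genes were those with a symbol beginning with Adgr and a family letter, with Gpr and a number, or with Gprc. They came to 97 of the 30827 genes that the arrays measured through a probe group, called a transcript cluster, naming 1 gene. The cells came from C57BL/6J wild-type mice and lacked Epcam, CD45 and CD31 on their surface, the proteins of epithelium, leukocytes and endothelium. They carried gp38 (podoplanin), and were split into a CD90- and a CD90+ population, with no treatment or genetic change in either; the labels give no age. Each population had 4 samples, numbered by their titles 13, 15, 17 and 19 (CD90-) and 14, 16, 18 and 20 (CD90+), each on an array of its own. Cells of 4 mice were used, but no label ties a sample to its mouse, and p-values here speak only of how far the 8 samples spread.

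G protein-coupled receptors cross the cell membrane repeatedly and pass a signal from outside the cell to G proteins inside it. Adhesion receptors carry long extracellular parts that bind matrix or neighbouring cells, and most cut themselves close to the membrane, which leaves a tethered peptide that can switch the receptor on. Orphan receptors are those without an agreed ligand, and several Gpr genes have been given a ligand since they were named. Class C receptors of the Gprc group include proteins induced by retinoic acid. Most of these receptors are known for low RNA levels and for use in few cell types.

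All values are the deposited log2 expression values. Per-sample values follow the order 13, 15, 17, 19 for CD90- and 14, 16, 18, 20 for CD90+. Errors of means are SD (n = 4), and differences are CD90+ minus CD90-, with the SE of limma's fit. Deposited values went up to 19.85, beyond the 16 of a 16-bit scanner, so a difference of 1 need not be a doubling of RNA. A gene was tested if 4 or more of the 8 samples reached 5.36, the median over every cluster and array. A gene was called dim where its mean lay below 6.73, the mean over the arrays of the median of 5222 negative control rows, and bright otherwise; a dim gene may still be expressed. Fewer cells of a type and less RNA per cell cannot be told apart in such bulk samples.

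The sort showed in Thy1, which codes for CD90. It lay at 5.46, 5.54, 5.57 and 5.53 in CD90- and at 7.03, 8.11, 7.69 and 7.94 in CD90+ samples, without overlap (exact permutation test, two-sided, p = 0.0286, the lowest possible with 4 against 4). Of the 6 fibroblast markers measured, 2 were called higher in CD90+ samples (limma), Dcn by 0.75 (adjusted p = 0.00209) and Lum by 0.69 (adjusted p = 0.00414). Another 1 was called lower, Col1a2 (difference -0.72, limma adjusted p = 9.04e-05). All 6 were bright in both populations, with list means between 15.29 and 15.61. All 8 leukocyte and all 7 endothelial markers measured were dim in both, though 2 leukocyte markers were called higher in CD90+ samples (limma), Cd3e by 0.74 (adjusted p = 0.0281) and Cd79a by 0.26 (adjusted p = 0.0321). Of the 8 epithelial markers 6 were bright in at least 1 population, with list means between 7.17 and 9.33. Samples 13 and 14 stood apart from the rest on sex-linked genes: Xist lay at 16.16 and 16.27 there and at 5.89 to 9.32 elsewhere, and Uty at 5.49 and 5.56 there and at 9.65 to 10.06 elsewhere. Leaving both out ended the calls of the receptors Gpr52 and Gpr63 and gave calls to Adgrf5 and Gpr62. On the lists of ligands, G proteins and arrestins it ended the calls of Arrb1, Pla1a and Sag and gave calls to Gnai2, Gnb1, Gnb5 and Rarres2.

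Of the 97 receptor genes, 68 were dim in both populations and 54 of these did not reach the filter. These 54 had means between 3.61 and 5.67 and were not tested. Another 24 genes were bright in both populations, 2 in CD90- only (Gpr39 and Gpr20) and 3 in CD90+ only (Adgrg6, Gpr37l1 and Adgrg2). Among the dim genes were all 3 proton-sensing receptors measured (Gpr4, Gpr65 and Gpr132), all 3 constitutively active Gs-coupled receptors (Gpr3, Gpr6 and Gpr12), and all 4 measured members of the adhesion F subfamily. The plot of mean levels shows most receptors in the lower left, under the level of the negative control rows.

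**Figure D1:**
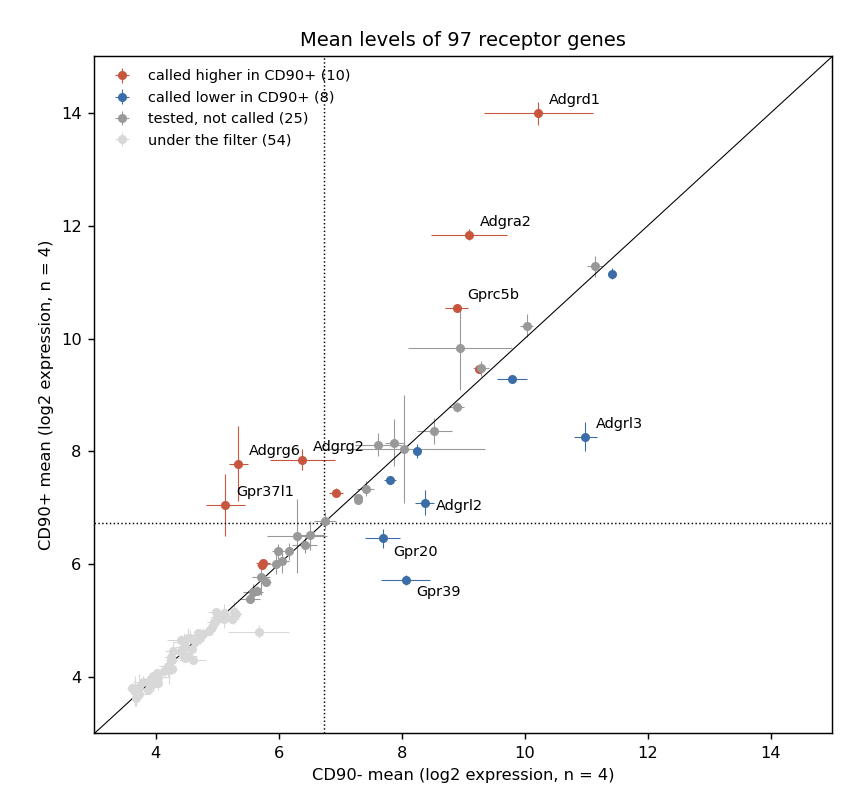
Mean log2 expression of the 97 receptor genes in CD90- (x axis) and CD90+ samples (y axis); bars are SD (n = 4), the diagonal marks equal means and dotted lines mark 6.73, the level of the negative control rows. The 68 dim genes sit in the lower left, Adgrd1 and Adgra2 stand above the diagonal and Adgrl3 and Gpr39 below it.

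Of the 43 receptor genes tested, 10 were higher and 8 lower in CD90+ samples (limma, adjusted p under 0.05 over all 17283 genes tested). Over all genes tested, 14.0% were called higher and 15.7% lower, together 29.7%, against 41.9% of the tested receptors. Populations were fully separate in 18 of the 43, or 41.9%, where 32.2% of all genes did not overlap. The median difference was 0.02 over the tested receptors and -0.014 over all genes. Of the 29 receptors bright in at least 1 population 16 were called (55.2%), against 35.1% of all such genes. Of the 14 tested adhesion receptors 5 were higher and 4 lower, and of the 29 tested Gpr and Gprc genes 5 were higher and 4 lower. These counts cover only genes that passed the filter. Calls with a difference of at least 1 numbered 10, 6 higher and 4 lower, where 7.19% of all genes were called with such a difference. The plot of differences gives each of the 43.

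**Figure D2:**
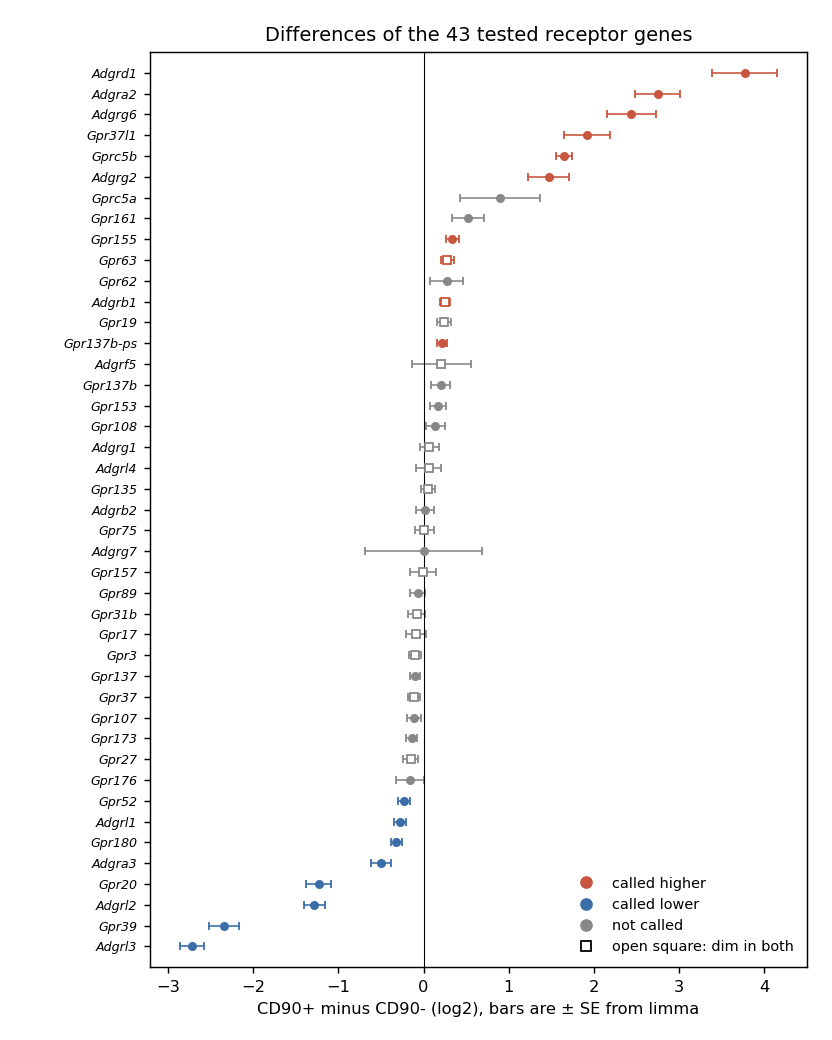
Difference of each of the 43 tested receptor genes (x axis, CD90+ minus CD90-, log2), with the SE of limma's fit; red was called higher, blue lower, grey not called, and open squares are dim in both populations. Differences run from -2.72 for Adgrl3 to 3.77 for Adgrd1, and most genes lie close to 0.

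Start-site sequences are shown for the members with the highest and lowest differences among called genes with an entry in RefSeq's promoter table (GRCm38.p6), to let their base makeup be compared. Each is the 250 bases before the most upstream start site, 5′ to 3′ along the gene. Capitals mark GC boxes (GGGCGG or its reverse complement CCGCCC) and AP-1 motifs (TGANTCA, the same on both strands); TATA boxes (TATAAA or TTTATA) were also searched and not found in these 4. No 2 marked matches overlap.
Adgrg6, chr10:14545037-14545286, minus strand: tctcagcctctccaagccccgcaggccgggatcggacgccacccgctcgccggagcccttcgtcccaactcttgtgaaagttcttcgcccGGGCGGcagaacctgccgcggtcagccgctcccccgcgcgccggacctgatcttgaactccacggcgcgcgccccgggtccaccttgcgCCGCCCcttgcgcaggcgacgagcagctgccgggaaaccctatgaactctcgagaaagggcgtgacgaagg
Gpr37l1, chr1:135167682-135167931, minus strand: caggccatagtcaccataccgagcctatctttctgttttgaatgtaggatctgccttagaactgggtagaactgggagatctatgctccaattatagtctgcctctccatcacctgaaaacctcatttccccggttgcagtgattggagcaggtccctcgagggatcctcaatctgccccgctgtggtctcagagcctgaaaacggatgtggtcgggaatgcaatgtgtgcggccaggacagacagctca
Adgrl3, chr5:81020321-81020570, plus strand: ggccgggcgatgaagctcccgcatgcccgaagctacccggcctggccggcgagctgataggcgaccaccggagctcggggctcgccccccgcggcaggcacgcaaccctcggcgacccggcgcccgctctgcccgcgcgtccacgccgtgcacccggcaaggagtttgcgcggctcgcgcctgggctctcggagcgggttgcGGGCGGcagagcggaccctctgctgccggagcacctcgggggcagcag
Gpr39, chr1:125676746-125676995, plus strand: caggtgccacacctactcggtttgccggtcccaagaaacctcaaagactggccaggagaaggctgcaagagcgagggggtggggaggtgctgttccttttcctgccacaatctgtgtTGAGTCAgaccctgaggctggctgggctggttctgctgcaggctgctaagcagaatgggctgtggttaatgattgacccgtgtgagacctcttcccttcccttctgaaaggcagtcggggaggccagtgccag

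Each direction held a CpG-rich and a CpG-poor window. Adgrg6 and Adgrl3 had 32 and 36 CpG dinucleotides and 2 and 1 GC boxes, while Gpr37l1 and Gpr39 had 7 and 5 CpG and no GC box. The AP-1 match stood in the Gpr39 window. Over all 32851 windows of this length the median CpG count was 6, 32.7% held a GC box, 6.75% an AP-1 motif and 12.4% a TATA box. Those 32851 windows count every start site of a gene. Of the 97 receptor genes 74 had an entry, each counted once by its most upstream window. Their median CpG count was 6, with a median of 15 for the 22 bright in at least 1 population and 3 for the 41 under the filter. A GC box stood in 12 of these 22 and in 12 of these 41. A match is only a match of letters.

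Adgrd1 (GPR133), an adhesion receptor coupled to Gs and cAMP, differed most. Its values were 11.45, 9.35, 10.17 and 9.93 in CD90- samples and 13.71, 14.02, 14.05 and 14.19 in CD90+ samples. Every CD90+ sample was above every CD90- sample, and the CD90- samples were spread far wider, with sample 13 highest. The mean rose from 10.22 ± 0.884 to 13.99 ± 0.204, a difference of 3.77 ± 0.382 (SE; limma adjusted p = 0.000129). Without sample 13 it was 4.18.

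Adgra2 (GPR124), which works with the membrane protein Reck as a co-receptor for the ligands Wnt7a and Wnt7b, showed the same arrangement. It lay at 9.88, 8.38, 9.16 and 8.95 in CD90- and at 11.7, 11.88, 11.93 and 11.86 in CD90+ samples. The CD90+ samples lay close together, while sample 13 was again the highest CD90- sample and sample 15 the lowest. The difference was 2.75 ± 0.266 (SE; limma adjusted p = 9.65e-05). Its subfamily member Adgra3 (GPR125) went the other way, at 9.43, 9.9, 9.91 and 9.92 against 9.23, 9.3, 9.29 and 9.36. Its difference was -0.5 ± 0.114 (SE; limma adjusted p = 0.0111), with sample 13 close to the CD90+ samples and the other CD90- samples well above them; without sample 13 it was -0.62.

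Adgrg6 (GPR126), which drives myelination by Schwann cells and binds collagen IV and laminin, was at 5.56, 5.33, 5.2 and 5.29 in CD90- and 7, 8.49, 7.5 and 8.13 in CD90+ samples. It was dim in every CD90- sample and bright in every CD90+ sample. The difference was 2.44 ± 0.288 (SE; limma adjusted p = 0.00031). Adgrg2 (GPR64), known from the ducts of the male reproductive tract, was at 6.79, 5.7, 6.81 and 6.22 against 7.86, 8.03, 7.58 and 7.91, a difference of 1.47 ± 0.241 (SE; limma adjusted p = 0.00197). The populations did not overlap, and CD90- samples 13 and 17 lay close to the level of 6.73. Adgrg1 (GPR56), a receptor for collagen III, was dim at 5.95 ± 0.156 and 6.01 ± 0.191 (limma adjusted p = 0.703).

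Gpr37l1, a receptor of glial cells for which prosaposin has been proposed as ligand, was at 4.76, 5.48, 5.01 and 5.25 in CD90- and 6.4, 7.52, 6.8 and 7.48 in CD90+ samples. All CD90+ values were higher than all CD90- values, and sample 14 was the lowest of them, under the negative control rows. The difference was 1.92 ± 0.266 (SE; limma adjusted p = 0.000759). Both Gpr37l1 and Adgrg6 passed the filter through the 4 CD90+ samples and only 1 CD90- sample, so passing already required a difference. Its relative Gpr37 was dim in both, at 5.64 ± 0.0778 and 5.53 ± 0.083 (limma adjusted p = 0.279).

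Gprc5b, a class C receptor of the retinoic acid-induced group, was bright and tight in both populations, at 9.12, 8.66, 8.9 and 8.88 against 10.58, 10.51, 10.48 and 10.59. No value of either population came near the other. The difference was 1.65 ± 0.0955 (SE; limma adjusted p = 4.88e-06). Gprc5a, of the same group and known from epithelium, was at 9.53, 7.71, 9.09 and 9.44 against 8.97, 9.49, 10.36 and 10.55, overlapping, with a difference of 0.9 ± 0.473 (SE; limma adjusted p = 0.193). The other class C genes measured, Gprc5d, Gprc6a, Gpr158 and Gpr179, did not reach the filter.

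**Figure D3:**
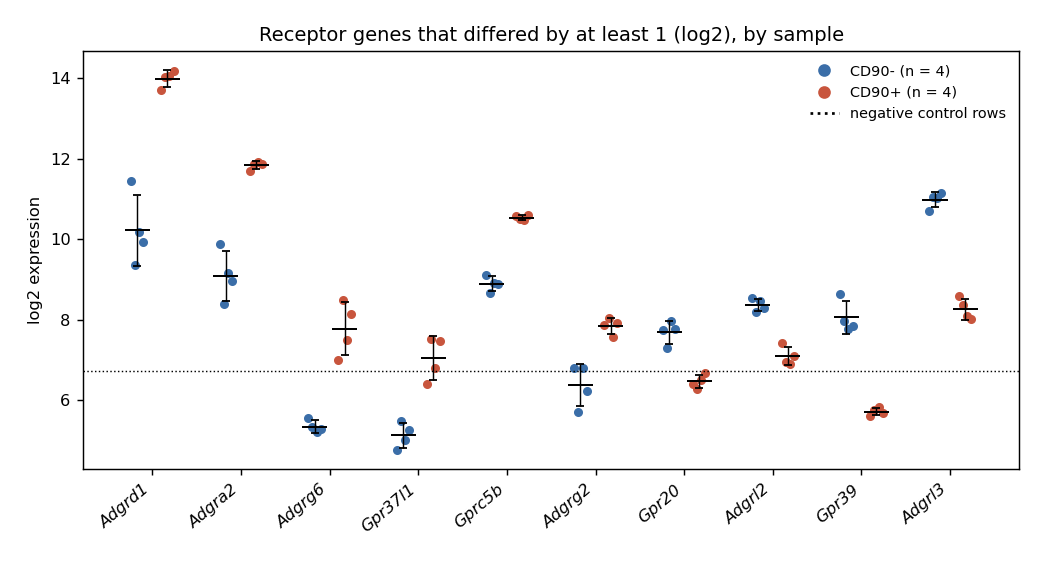
Log2 expression by sample (y axis) of the 10 receptor genes called with a difference of at least 1; points are samples, bars mean and SD (n = 4), and the dotted line is the level of the negative control rows. The populations do not overlap in any of the 10, and sample 13, the leftmost CD90- point, is the highest CD90- point for Adgrd1 and Adgra2.

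Latrophilins, coded by Adgrl1, Adgrl2 and Adgrl3 of the adhesion L subfamily, bind teneurins and FLRT proteins on neighbouring cells. Of the 4 genes of this subfamily tested, 3, the latrophilins, were lower in CD90+ samples. None was called higher, where 15.7% of all genes were called lower. Adgrl3 was at 10.71, 11.06, 11.02 and 11.14 in CD90- and 8.59, 8.36, 8.09 and 8.02 in CD90+ samples. The populations lay far apart for Adgrl3, with samples 13 and 14 nearest to each other. The difference was -2.72 ± 0.143 (SE; limma adjusted p = 2.94e-06).

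Adgrl2 was at 8.53, 8.19, 8.46 and 8.3 against 7.41, 6.96, 6.91 and 7.1, a difference of -1.28 ± 0.123 (SE; limma adjusted p = 9.69e-05). These values come from the brighter of its clusters. The other was dim, at 4.36 ± 0.0794 and 4.57 ± 0.0771, and pointed slightly the other way, so the clusters of Adgrl2 disagree; their mean gave -0.54 and was still called. Adgrl1 was bright at 11.34, 11.4, 11.43 and 11.51 against 11.21, 11, 11.22 and 11.15, a small step of -0.28 ± 0.0711 (SE; limma adjusted p = 0.0191). Its call was lost in 3 of 18 alternatives, among them the shift of each array to equal negative control rows (difference -0.1, limma adjusted p = 0.31) and leaving out sample 19 (-0.25, limma adjusted p = 0.0601). Adgrl4 (ELTD1), an endothelial member, was dim at 5.71 ± 0.143 and 5.77 ± 0.311 (limma adjusted p = 0.8).

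Gpr39, a zinc-sensing receptor of the gut and pancreas, was at 8.64, 7.97, 7.77 and 7.84 in CD90- and 5.61, 5.75, 5.82 and 5.69 in CD90+ samples. It was bright in all CD90- and dim in all CD90+ samples, a difference of -2.34 ± 0.177 (SE; limma adjusted p = 2.32e-05). Gpr20, a Gi-coupled orphan receptor known from the interstitial cells of Cajal, the pacemaker cells of the gut wall, was at 7.74, 7.29, 7.96 and 7.77 against 6.41, 6.27, 6.5 and 6.68. All 4 CD90+ values were under the level of 6.73, sample 20 being nearest to it, and the difference was -1.23 ± 0.148 (SE; limma adjusted p = 0.000344).

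The remaining called genes differed by 0.34 or less. Gpr155, a cholesterol-sensing protein of lysosomes, was at 7.08, 6.82, 6.96 and 6.86 against 7.24, 7.35, 7.32 and 7.18, with CD90+ higher by 0.34 (limma adjusted p = 0.0103). Gpr180, an atypical membrane protein, lay at 7.87, 7.67, 7.84 and 7.87 against 7.46, 7.47, 7.55 and 7.49, with CD90+ lower by 0.32 (difference -0.32; limma adjusted p = 0.00638). The pseudogene Gpr137b-ps was at 9.24, 9.26, 9.25 and 9.24 against 9.38, 9.51, 9.44 and 9.51, a difference of 0.22 (limma adjusted p = 0.0201). Its parent gene Gpr137b, which acts on lysosomes, was at 10.03 ± 0.106 and 10.23 ± 0.208 (limma adjusted p = 0.209; 0.0345 without sample 14). Copies so alike may share probes, so the values of both are uncertain. Adgrb1 (BAI1), a receptor for the phosphatidylserine of dying cells, and the orphan Gpr63 were called higher by 0.25 and 0.28, but both were dim in both populations.

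The weakest call was Gpr52, a Gs-coupled orphan of the striatum, at 8.21, 8.24, 8.19 and 8.3 against 7.87, 8.01, 8.17 and 7.96. Sample 18 lay just under the lowest CD90- sample, and the difference was -0.23 (limma adjusted p = 0.044). Its call was lost in 12 of 18 alternatives, with adjusted p up to 0.487 (limma), while its difference stayed negative, from -0.29 to -0.06. Leaving out sample 16, 19 or 20 ended the call for Gpr137b-ps (limma adjusted p up to 0.0643), and leaving out sample 17, 18, or both 13 and 14, that for Gpr63 (up to 0.0629). The call for Gpr180 was lost with equal negative control rows (limma adjusted p = 0.104). The other 13 called receptors kept their call in every alternative that tested them with the threshold unchanged, and no called receptor changed sign. Among these 13, Adgra3, Gpr155 and Adgrb1 were not called at the stricter threshold of 0.01 (limma adjusted p = 0.0111, 0.0103 and 0.0149).

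Of the 25 tested genes without a call, differences ran from -0.16 to 0.9. The 6 of them with the highest means were Gpr108, Gpr137b, Gprc5a, Gpr153, Gpr107 and Gpr176. Gpr108 and Gpr107, paired proteins of the Golgi, were at 11.14 ± 0.134 and 11.28 ± 0.184 (limma adjusted p = 0.372) and at 8.89 ± 0.124 and 8.78 ± 0.0906 (limma adjusted p = 0.343). Gpr153 was at 9.29 ± 0.126 and 9.47 ± 0.139 (limma adjusted p = 0.2), and Gpr176, an orphan of the circadian clock centre, at 8.53 ± 0.286 and 8.36 ± 0.226 (limma adjusted p = 0.493). Gpr161, a receptor of primary cilia that restrains Hedgehog signalling, was at 7.08, 7.92, 7.59 and 7.83 against 8.34, 8.26, 7.92 and 7.98. Its sample 13 was low, the populations touched at 7.92, and its difference of 0.52 ± 0.186 (SE) had a limma adjusted p of 0.0673. Without sample 15 Gpr161 was called (limma adjusted p = 0.0462). Gpr62, at 7.88 ± 0.155 and 8.15 ± 0.418 (difference 0.27, limma adjusted p = 0.34), gained a call on leaving out sample 14 (0.46, limma adjusted p = 0.0285) or both 13 and 14 (0.39, limma adjusted p = 0.042). A further gene under the filter, Gpr141, at 5, 5.68, 6.2 and 5.78 against 4.64, 4.92, 4.79 and 4.84, was called lower when no filter was set (difference -0.87, limma adjusted p = 0.0244); it was dim in every sample.

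Several receptors are known from cell types other than fibroblasts, and their values were set beside the markers of those cells. Over all genes tested, 14.0% were called higher and 15.7% lower in CD90+ samples. Of the 8 enteric glia markers measured, 7 were higher and 1 (Cryab) lower. Of the 7, Gfap passed the filter through the 4 CD90+ samples alone, so passing already required a difference. Their mean level was 6.17 to 6.41 in CD90- and 7.18 to 8.25 in CD90+ samples; Gfap and Foxd3 were dim in both populations. Among CD90+ samples the glia marker mean was 7.18, 8.25, 7.61 and 7.96, lowest in sample 14 and highest in sample 16. Adgrg6 and Gpr37l1 were lowest and highest in the same samples, and so was Thy1, the gene of the sort. Of the 6 neuronal markers measured 3 were tested and all 3 were called higher, one of them, Ret, passing the filter through the 4 CD90+ samples alone. All but Stmn2 were dim in both populations; it was at 6.39 ± 0.261 and 11.08 ± 0.509. The part of glial or neuronal RNA in the receptor differences was not tested. Other receptors of neural cells, Gpr17, Adgrb3 and Gpr158, were dim in both populations, and Adgrb2 lay at the line, at 6.75 ± 0.174 and 6.77 ± 0.151. Adgrb1, on the same list, was called higher by 0.25 and was also dim in both (limma adjusted p = 0.0149).

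Epithelial markers varied widely among samples of the same population, and 0 of 8 were called. Their mean was 9.25, 7.17, 7.88 and 7.98 in CD90- and 7.53, 7.84, 8.26 and 9.33 in CD90+ samples. Sample 13 was the highest CD90- sample and sample 14 the lowest CD90+ sample, so the lack of calls does not show equal levels. Adgrg7 (GPR128), a receptor of intestinal epithelium, followed the same order within each population, at 9.82, 6.64, 7.72 and 7.96 against 7, 7.61, 8.29 and 9.24, with means of 8.04 in both (limma adjusted p = 0.999). These equal means rest on single samples: the difference of Adgrg7 was 0.59 without sample 13, -0.47 without sample 15 and 0.94 without samples 13 and 14, and it was called in none of 18 alternatives. Gprc5a was likewise lowest in sample 15 among CD90- samples and highest in sample 20 among CD90+ samples, and its difference was 1.38 without samples 13 and 14 (limma adjusted p = 0.0665) and 0.49 without sample 15. Other receptors known from epithelium, Gpr35, Gpr160 and Adgrf1, did not reach the filter. Adgrg2, also on the list of receptors known from epithelium, was called higher as given above (difference 1.47, limma adjusted p = 0.00197).

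Endothelial markers were dim in all samples' means, and the endothelial receptors Adgrl4, Adgrf5 and Gpr182 were dim too. Adgrf5 was at 6.81, 6.25, 6.45 and 5.65 against 5.55, 7.01, 6.69 and 6.76, and was called higher only without samples 13 and 14 (difference 0.7, limma adjusted p = 0.0396). All receptors known from leukocytes on the list were dim: Adgre1, Adgre4, Gpr18, Gpr34, Gpr65, Gpr84, Gpr132, Gpr141, Gpr171, Gpr174 and Gpr183. For Gpr20, the markers of interstitial cells of Cajal were Ano1, at 11.37, 10.07, 9.92 and 9.68 against 7.77, 6.6, 6.69 and 7.06, and Kit, at 10.56, 7.49, 6.63 and 6.96 against 7.61, 6.85, 6.49 and 6.91. Ano1 was lower in every CD90+ sample, as Gpr20 was (difference -3.23, limma adjusted p = 0.000342), and Kit was highest in sample 13 and not called (limma adjusted p = 0.406). The part of these cells in the Gpr20 difference was not tested.

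Markers of muscle and of the lining of the gut's outer surface also moved. Of 5 smooth muscle markers 3 were called higher (Des, Cnn1 and Lmod1) and Acta2 lower (difference -2.13, limma adjusted p = 0.00247). Among all genes tested, 14.0% were called higher and 15.7% lower. Myh11 was not called, at 10.97 ± 0.542 and 11.28 ± 0.865 (limma adjusted p = 0.637). Lmod1 was dim in both populations and Des in CD90- only. The list mean was 8.65 to 9.39 in CD90- and 8.99 to 10.3 in CD90+ samples, highest in sample 14. All 4 mesothelial markers were dim in both populations, with list means of 4.66 to 4.81 against 5.17 to 5.67, and 1 of the 2 tested, Upk3b, was called higher by 1.26 (limma adjusted p = 0.000136), having passed the filter in CD90+ samples alone. Their part in the receptor differences was not tested.

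**Figure D4:**
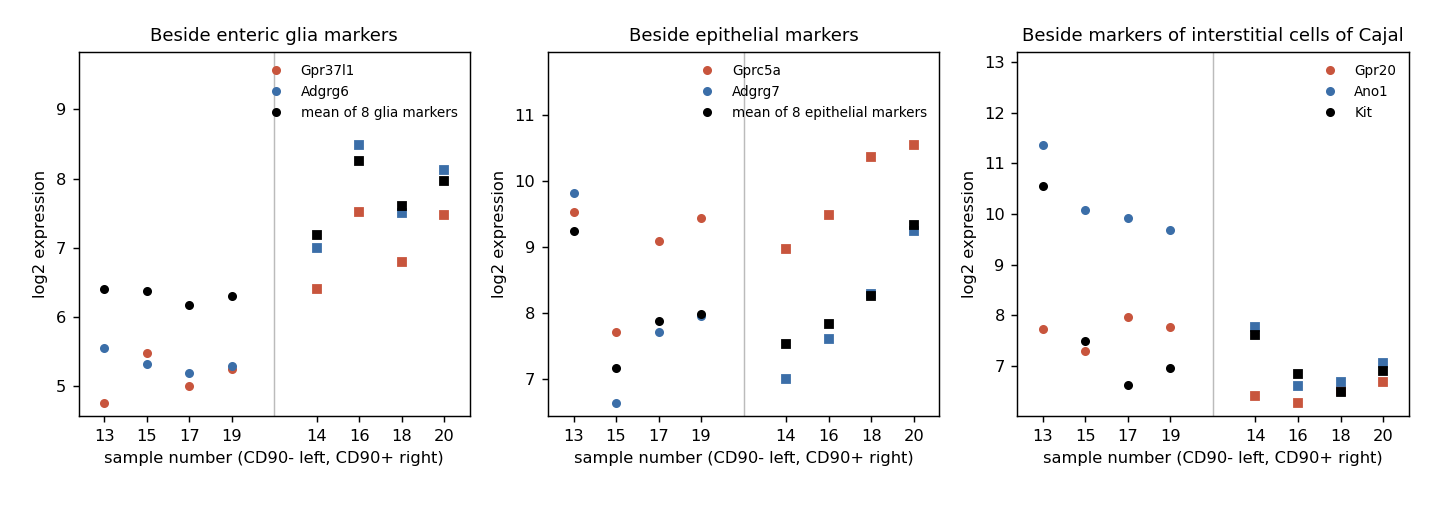
Log2 expression (y axis) in each sample (x axis, CD90- as circles on the left, CD90+ as squares on the right) of 5 receptor genes beside markers of other cell types. Gpr37l1 and Adgrg6 are lowest in sample 14 and highest in sample 16 among CD90+ samples, as is the mean of 8 glia markers; Adgrg7 follows the order of the epithelial mean within each population; Kit stands out in sample 13 and Gpr20 does not.

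Ligands and partners of the adhesion receptors were taken from a list of 29 genes. Of 15 tested of 27 measured, 8 rose and 2 fell, where 14.0% of all genes were called higher and 15.7% lower (median difference 0.4, against -0.014 over all genes), with Thy1 itself among those that rose, in a list chosen with earlier results of these data known. Cd55, which binds the adhesion receptor CD97, rose most, from 13.67, 11.34, 12.54 and 12.43 to 16.29, 16.35, 16.37 and 16.33 (limma adjusted p = 0.00015). The CD90+ samples were almost equal and the CD90- samples spread over more than 2 units, sample 13 highest and sample 15 lowest, as for Adgrd1 and Adgra2. CD97 also binds CD90 itself; its gene Adgre5 shares its cluster with a microRNA gene and was not analysed here.

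All 3 FLRT genes, whose proteins are latrophilin ligands, rose. Flrt2 was at 8.07, 6.24, 6.91 and 6.67 against 9.53, 9.95, 9.19 and 9.43, a difference of 2.55 ± 0.356 (SE; limma adjusted p = 0.000793). Flrt3 and Flrt1 rose by 1 and 0.95 from dim CD90- levels. Tenm3, the bright teneurin, fell with Adgrl3, from 12.09, 12.24, 11.93 and 12.18 to 10.52, 10.23, 10.03 and 10.15, a difference of -1.88 ± 0.115 (SE; limma adjusted p = 6.75e-06). The other teneurins, Tenm1, Tenm2 and Tenm4, were dim.

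Plxdc2, reported as a partner of Adgrd1, rose from 11.29, 8.79, 8.74 and 8.83 to 12.84, 12.49, 11.57 and 12.01, with sample 13 close to the CD90+ samples (difference 2.82, limma adjusted p = 0.00622; 3.44 without sample 13). Ptk7, another reported partner, was at 9.68 ± 0.183 and 9.78 ± 0.167 (limma adjusted p = 0.568). Reck, the partner of Adgra2, was bright, at 13.42 ± 0.193 and 13.47 ± 0.278 (limma adjusted p = 0.844), and the ligands Wnt7a and Wnt7b did not reach the filter. Of the matrix ligands of Adgrg6, Lama2 rose by 0.46 (limma adjusted p = 0.0027) and Col4a1 was at 9.82 ± 0.144 and 9.82 ± 0.0902 (limma adjusted p = 0.998). Lama2 lost its call after another quantile normalization (limma adjusted p = 0.0794). Tgm2, a partner of Adgrg1, fell by 0.46 (limma adjusted p = 0.0191), a call lost in 6 alternatives, among them without sample 16, 17, 19 or 20 (limma adjusted p from 0.0515 to 0.0567), while Col3a1 was at 15.81 ± 0.262 and 15.88 ± 0.147 (limma adjusted p = 0.756).

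Of 9 tested genes for ligands of Gpr receptors, or for enzymes that make them, 3 rose and 1 fell (median difference 0.37). The share called over all genes was 29.7% in either direction. Psap, the prosaposin gene, rose from 16.21, 16.06, 15.98 and 15.94 to 16.9, 16.86, 16.82 and 16.79 (limma adjusted p = 7.92e-05). The enzymes around the oxysterol ligand of Gpr183 moved apart: Ch25h, which makes its precursor, fell by 1.18 and Hsd3b7, which breaks it down, rose by 1.16, while Cyp7b1 was at 7.42 ± 0.265 and 7.36 ± 0.414 (limma adjusted p = 0.854). Gpr183 itself was dim in both populations. Rarres2, the chemerin gene, was higher by 0.43 short of a call (limma adjusted p = 0.0504) and was called in 9 of 18 alternatives, among them without sample 13 (0.28, limma adjusted p = 0.014), without sample 19 (0.5, limma adjusted p = 0.0492), and without samples 13 and 14 (0.27, limma adjusted p = 0.023). Pla1a was called higher by 0.96 with overlapping populations (limma adjusted p = 0.0471), and lost its call in 8 of 18 alternatives, among them without sample 14, 15, 17, 18, 19 or 20 (limma adjusted p up to 0.105).

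G protein subunits moved in both directions: of 23 tested, 5 rose and 7 fell (median difference -0.04). Over all genes tested, 14.0% were called higher and 15.7% lower. Gnai1, an inhibitory alpha subunit that lowers cAMP, fell from 14.63, 14.58, 14.22 and 14.32 to 11.44, 11.25, 11.35 and 11.18, a difference of -3.13 ± 0.107 (SE; limma adjusted p = 3.66e-07). Its relatives Gnai2 and Gnai3 were at 13.64 ± 0.111 and 13.42 ± 0.115 (limma adjusted p = 0.0771) and at 10.77 ± 0.0694 and 10.85 ± 0.0829 (limma adjusted p = 0.375). Gnai2 was called lower in 5 of 18 alternatives, among them without sample 14 (difference -0.27, limma adjusted p = 0.0398). With samples 13 and 14 as a block Gnai2, Gnb1 and Gna11 were called lower (limma adjusted p = 0.0167, 0.00371 and 0.0329), and with consecutive title numbers as a replicate block likewise (0.026, 0.00809 and 0.0403). Without samples 13 and 14 Gnb1 was called lower (difference -0.34, limma adjusted p = 0.00849) and Gnb5 higher (0.24, limma adjusted p = 0.0443). Gnb4, Gng2 and Gna12 also fell, with differences of -2, -1.55 and -1.15 and no overlap between populations. Gnao1, Gng8, Gng7 and Gngt2 rose by 0.52, 0.56, 0.62 and 1.47, of which Gng7 was dim in both populations. Gnas, the stimulatory alpha subunit, was at 9.36 ± 0.0793 and 9.36 ± 0.0808 (limma adjusted p = 0.979).

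Of 6 tested receptor kinases and arrestins, which switch receptors off, 1 rose and 3 fell (median difference -0.18). Among all genes tested 29.7% were called in either direction. Grk3 fell from 9.6, 9.81, 9.54 and 9.78 to 8.12, 7.84, 7.49 and 7.69, a difference of -1.9 ± 0.133 (SE; limma adjusted p = 1.49e-05), and Grk5 by 0.35. Arrb1, a beta-arrestin, rose by 0.45 with overlapping values (limma adjusted p = 0.0307) and lost its call in 6 of 18 alternatives, among them without sample 13, 14, 15, 18 or 20 (limma adjusted p up to 0.0996). Sag, the arrestin of rod cells, fell by 0.26 at dim levels, and its call was lost in 9 of 17 alternatives, among them without sample 14, 15, 16, 17, 19 or 20. Calls for Grk5, Gna13 and Gng12 were each lost in 2 alternatives, another quantile normalization and equal negative control rows.

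**Figure D5:**
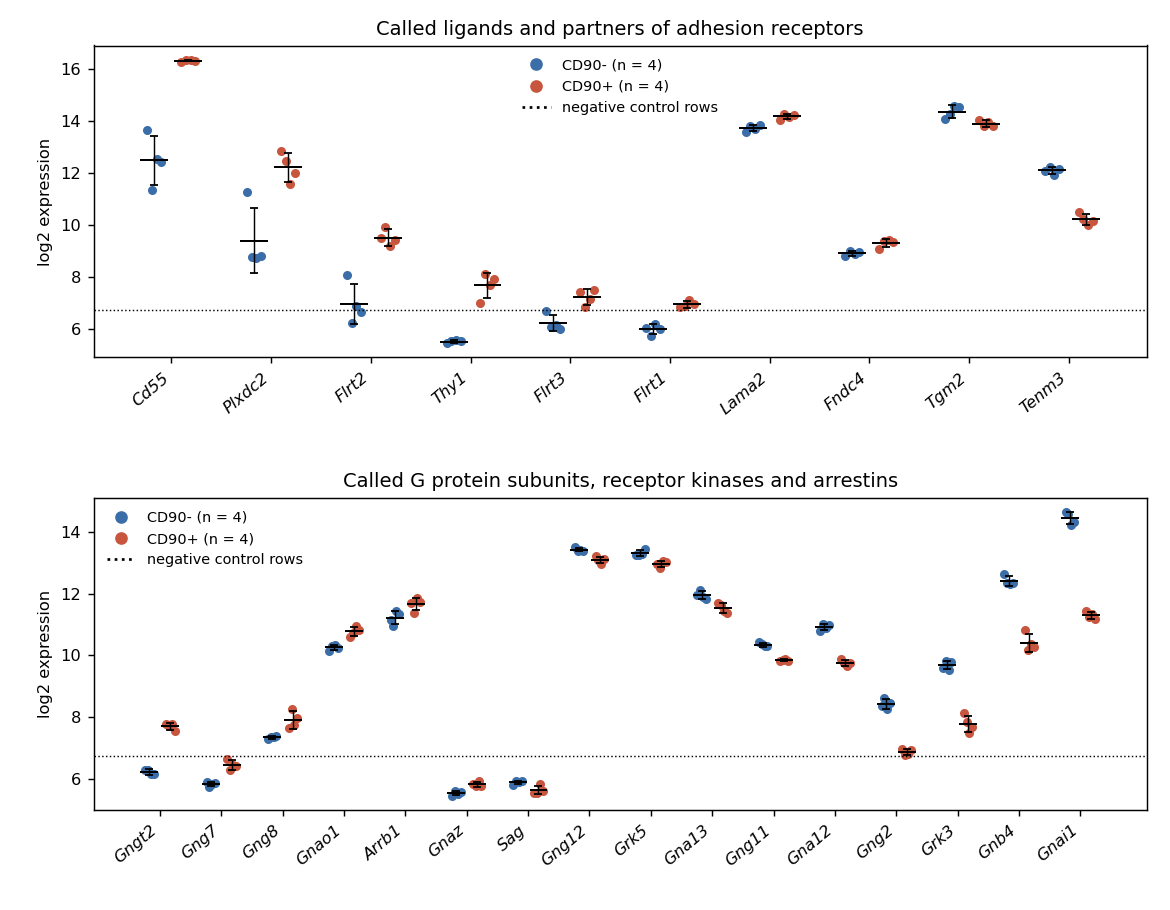
Log2 expression by sample (y axis) of the called ligands and partners of adhesion receptors (top) and of the called G protein subunits, receptor kinases and arrestins (bottom); points are samples, bars mean and SD (n = 4), and the dotted line is the level of the negative control rows. Cd55, Plxdc2 and Flrt2 show their highest CD90- value in sample 13, the leftmost point, and Gnai1 shows the deepest fall.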

How the data were processed

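Expression in sorted fibroblasts of mouse colon was read from 8 one-colour Affymetrix arrays; per the labels' protocols, 2 ng was amplified. Per the submitters' processing notes, the authors used Affymetrix Expression Console 1.1 and RMA, which corrects background, quantile-normalizes arrays and summarises probes; settings and genome build are not given in the sources used here. In the authors' deposited log2 table were 65956 transcript clusters and 6732 control rows. The platform annotation, with symbols updated by gene identifier through RefSeq (GRCm38.p6), gave 31388 clusters 1 gene, 1362 more than 1 gene, and left 33206 unnamed. For a gene with several clusters the one with the highest mean over the 8 arrays was kept.

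Symbols were updated for 17 of the 97 receptors. Receptors whose only cluster names several genes (Gpr21, Gpr146 and Adgre5) were not analysed here, and Gper1 and Hcar1, which the annotation also lists under older Gpr symbols, were not counted. The arrays' median cluster values lay between 5.3 and 5.41, and precision is limited by how few arrays there are. The median of the negative control rows was on average 6.81 in CD90- and 6.64 in CD90+ arrays, without overlap. Small differences between populations have to be read beside that offset. The same level of 6.73 divided dim from bright in both populations.

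The 17283 genes that reached 5.36 in at least 4 samples were tested with limma 3.58.1 (lmFit, eBayes) in R 4.3.3, two-sided, without a block, with Benjamini-Hochberg adjustment over all of them. Tested on data simulated for the same comparison and 17283 genes, limma recovered 50.7%, 89.6% and 98.5% of genes given log2 changes of 0.5, 1 and 2. These changes went to 67, 67 and 66 genes, with independent noise, and 9 unchanged genes were called. In the measured data 29.7% of genes were called, so the recovery there may differ. The naming rule took called bright receptors without overlap (up to 8 a direction) with full values, other called receptors, the 6 uncalled ones with the highest means, receptors known from other cell types, and up to 4 called genes a direction from each list. Adgrg1, Gpr37, Gpr161, Gpr62 and list genes beyond these were added after their values were seen. The members and lists were chosen with earlier results of these data known. Alternatives changed the filter, normalization, variance model, array weights, cluster choice, blocks, threshold, member rule and samples left out. Counts of alternatives given for single genes leave out the changes of threshold and member rule. Plots were made in matplotlib 3.10.9.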

Additional observations from a re-analysis of the deposited data

Results flagged for a closer look

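Among the receptors named and Thy1, 94 groups of 4 samples were examined for a sample far from the other 3, and 4 were found, where chance gives about 1 in 20. Adgra3 in CD90- sample 13 was at 9.43, with the others between 9.9 and 9.92. Gpr180 in CD90- sample 15 was at 7.67, with the others between 7.84 and 7.87. Adgrl4 in CD90+ sample 14 was at 5.31, with the others between 5.89 and 5.98. Adgre1 in CD90- sample 15 was at 5.15, with the others between 4.89 and 4.94. The last 2 genes were dim in all samples.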

How the results depend on the processing

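The counts of called receptors were 10 higher and 8 lower. At an adjusted p under 0.01 (limma) they were 6 and 5, and the share of all genes at that threshold was not counted. With each array shifted to equal negative control rows 15 were higher and 5 lower, and of the other genes on the lists 22 were called higher and 8 lower, where the main counts were 17 and 13. That shift moved the median difference of all genes from -0.014 to 0.157, and all counts of all genes with it (5446 higher and 1472 lower, against 2418 and 2711). Leaving out each sample in turn gave 9 to 12 receptors higher and 6 to 8 lower. Over all genes these fits gave 1848 to 2319 higher and 1948 to 2829 lower. Under the other alternatives counts stayed within 1.5 times. Counting the older symbols too, chosen after seeing the data, gave 11 higher. The labels pair no samples. Taking consecutive title numbers as a replicate block, a guess, gave 11 receptors higher and 7 lower (2778 and 3187 over all genes). A block for samples 13 and 14 gave 10 and 8 (2824 and 3232 over all genes). Of 18 called receptors 13 kept their call in every alternative that tested them with the threshold unchanged, and none changed sign. Among these 13, Adgra3, Gpr155 and Adgrb1 lost their call at an adjusted p under 0.01 (limma). Of 25 not called, 18 stayed so in all alternatives. Gpr19 (adjusted p = 0.065, limma) gained a call in 4, among them without sample 16 (limma adjusted p = 0.0444). Dim genes limit what can be said: 54 of 97 receptors were under the filter, and 1 of these was called without it. Thy1 kept its call throughout.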
